A study of Mus musculus with 18 samples.

Results

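The aryl hydrocarbon receptor gene Ahr, its dimer partner Arnt and its target Tiparp were followed together with the hypoxia factor genes Hif1a and Epas1 and the hypoxia-responsive genes Vegfa and Egln3, in regulatory and conventional CD4+ T cells of the mouse. The members were taken from the annotation of the array: a probe set counted where it carried exactly 1 gene symbol and that symbol was among the 7. They are 7 of 18193 genes that can be read in this way, and have 20 of the array's 45037 probe sets, controls left out. Each gene was read from its probe set with the highest mean over the 18 arrays, and the other probe sets were tested singly. All 7 genes passed the filter on dim signals, which kept 12258 genes with at least 1 group mean above an intensity of 65.5. Vegfa passed through thymic Treg cells, the group where its mean was highest, so its level was near that floor throughout.

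Whole-genome expression was measured on Affymetrix arrays in 6 groups with 3 arrays each. Every array held RNA of pooled mice. Regulatory T cells (Treg) were sorted as CD4+ CD25+ and conventional T cells (Tconv) as CD4+ CD25-, both negative for B220, CD11b and CD8a. Fat Treg and fat Tconv cells came from the epididymal abdominal fat of male C57BL/6 mice aged 25 to 35 weeks, 8 to 10 mice per array, and were also gated on TCRb. Lymph node Treg and lymph node Tconv cells came from pooled cervical, inguinal and mesenteric nodes of C57BL/6 mice aged 32 to 36 weeks, 3 to 6 mice per array. Thymic Treg and thymic Tconv cells came from BDC2.5/NOD mice aged 4 to 6 weeks, 3 to 6 per array, after depletion of CD8a+ cells. BDC2.5/NOD mice carry a transgenic T cell receptor on a background prone to autoimmune diabetes, and the labels give the sex only for fat. Thymus therefore differed from the other tissues in strain, receptor repertoire and age as well as in organ, which cannot be told apart, and its levels are set beside theirs without a test. CD25 is also found on activated conventional T cells, so the gate does not select Treg cells alone. The spread between arrays is a spread between pools.

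AHR is a transcription factor that waits in the cytoplasm with the chaperone HSP90, moves to the nucleus when it binds a ligand such as a dietary indole, a tryptophan metabolite or dioxin, and there pairs with ARNT. ARNT is also the partner of HIF-1alpha and HIF-2alpha (the product of Epas1), whose protein levels are set by oxygen: with oxygen present, prolyl hydroxylases such as EGLN3 mark them for degradation, and when oxygen falls they accumulate and switch on genes for glycolysis, blood vessel growth and their own hydroxylases. In CD4+ T cells, Ahr is known for roles in Th17 and regulatory cells and in lymphocytes of barrier tissues, and Hif1a for roles in glycolysis and in the balance of Th17 and regulatory cells. Both factors are controlled to a large part as proteins, which arrays do not measure.

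The deposited intensities of the 6 fat arrays had medians of 76.9 to 82.2, against 57.9 to 63.0 for the 12 lymph node and thymus arrays, so the fat columns lay on another scale and may have been normalized apart from the others. All values below were therefore quantile normalized over the 18 arrays, and levels set across tissues rest on that step. On this scale the median difference over all tested genes between fat and lymph node was -0.01 in Treg cells and -0.04 in Tconv cells (log2), against 0.37 and 0.33 as deposited. The share of called genes that were higher in fat was 45.4% in Treg cells and 47.3% in Tconv cells, against 83.2% and 90.3% as deposited. The markers matched the labels: Foxp3, the defining factor of Treg cells, averaged 1315 in fat Treg and 75.7 in fat Tconv cells, 972 in lymph node Treg and 48.1 in lymph node Tconv cells, and 810 in thymic Treg and 35.9 in thymic Tconv cells, with 7 of 7 T cell markers above the floor in every group. Treating the replicate number as a block raised the number of genes called to 1081 for Treg against Tconv in lymph node, 1640 in thymus and 2837 in fat, against 563, 676 and 1563 without it, and the number called for the fat minus lymph node difference of the Treg effect to 1447, against 655.

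**Figure D1:**
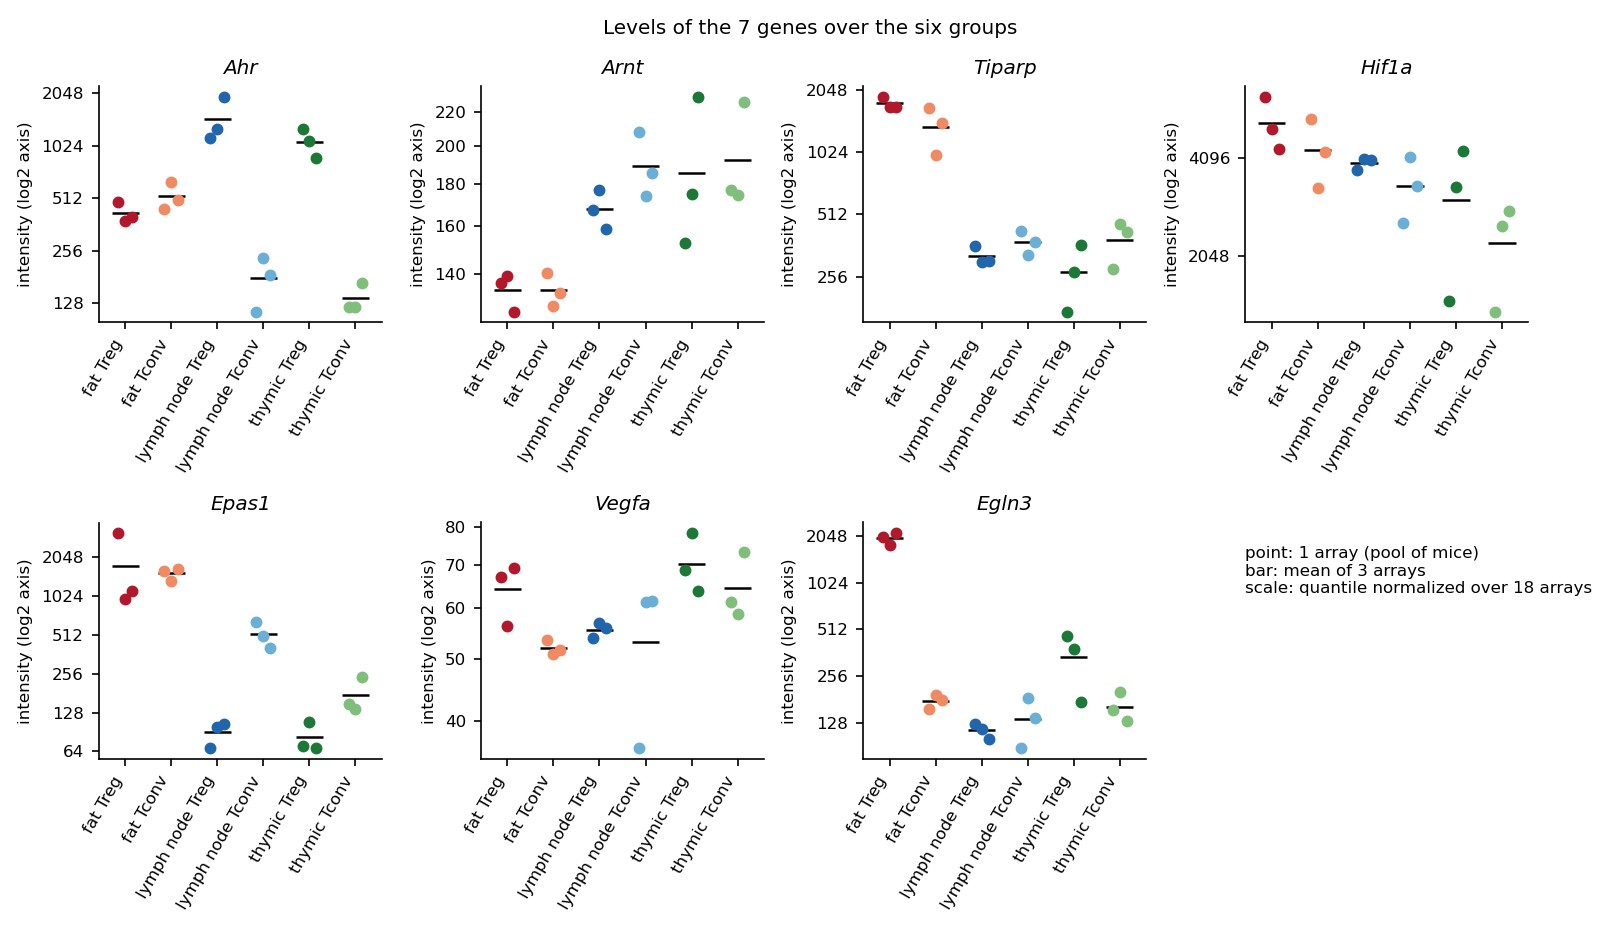
Intensity of each gene on every array (log2 axis, quantile normalized over 18 arrays); points are arrays and bars the means of 3 arrays, with Treg left of Tconv in each tissue. Ahr was high in lymph node and thymic Treg cells and of middle level in both fat groups, Egln3 read 1778 to 2126 in fat Treg cells and at most 466 elsewhere, and Tiparp and Epas1 were highest in both fat groups.

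Ahr, the receptor, was the member that separated Treg from Tconv cells most in lymph node and thymus, and it did not separate them in fat. Its intensity was 489, 379 and 399 in fat Treg cells, against 444, 632 and 500 in fat Tconv cells. In lymph node it was 1134, 1282 and 1951 in Treg cells, against 114, 233 and 185 in Tconv cells. In thymus it was 1272, 1090 and 864 in Treg cells, against 122, 121 and 167 in Tconv cells. The Treg and Tconv arrays did not overlap in lymph node or thymus, while the fat groups overlapped and lay between the Treg and Tconv levels of the other tissues. In order of the means, lymph node Treg (1456) and thymic Treg cells (1076) came highest and overlapped, fat Treg (422) and fat Tconv cells (526) followed and overlapped, and lymph node Tconv (177) and thymic Tconv cells (137) were lowest and overlapped.

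Between Treg and Tconv cells, 2 of the 7 genes were called in lymph node, where 4.59% of all tested genes were called (limma on the log2 scale, Benjamini-Hochberg over 12258 genes, threshold 0.05). Ahr was the 1 higher in Treg cells, beside 3.26% of all genes, and Epas1 the 1 lower, beside 1.34%. Ahr was higher by 3.06 ± 0.25 (log2 difference ± SE, n = 3 each, an 8.32-fold difference, adjusted p = 5.59e-07). In thymus, 1 of 7 was called beside 5.51% of all genes (3.40% higher and 2.11% lower), and it was again Ahr, higher by 2.98 ± 0.25 (7.87-fold, adjusted p = 5.85e-07). In fat, Ahr differed by -0.31 ± 0.25 (adjusted p = 0.560, 95% interval -0.84 to 0.22). The difference of the Treg effect between fat and lymph node, that is the Treg minus Tconv difference in fat minus that in lymph node, was -3.37 ± 0.36 for Ahr (adjusted p = 9.66e-06). The Treg effect in thymus minus that in lymph node was -0.08 for Ahr, with a 95% interval of -0.83 to 0.67, and limma called 0 of the 7 genes for that difference, beside 0.351% of all genes (43 genes). Of the 7, Epas1 (1.45) and Egln3 (1.16) had an unadjusted p under 0.05 there.

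Ahr differed between fat and lymph node in both cell types, in opposite directions. In Treg cells Ahr was lower in fat than in lymph node, with a difference of -1.75 ± 0.25 (log2, a 3.37-fold lower level, adjusted p = 3.95e-05), while in Tconv cells it was higher in fat by 1.61 ± 0.25 (3.06-fold, adjusted p = 0.000169). Other markers differed between the same Tconv arrays: 3 of 5 Treg markers were called higher in fat, with summed intensities of 3666 to 5126 in fat Tconv and 1804 to 4379 in lymph node Tconv cells. The 8 NK and cytotoxic markers summed to 5425 to 5968 in fat Tconv and 1151 to 1304 in lymph node Tconv cells, and of the 6 tested, 3 were called higher and 2 lower in fat. Their part in the Ahr difference was not tested. These comparisons share arrays with those within tissues. Within the 3 runs of close array numbers that held both tissues, the fat minus lymph node difference of Ahr was between -2.00 and -1.51 in Treg cells and between 1.27 and 2.13 in Tconv cells.

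The Ahr probe sets disagreed. The values above are those of 1422631_at, while 1450695_at gave group means between 70.6 and 86.5 in all 6 groups, close to the dim floor of 65.5. With 1450695_at the Treg minus Tconv difference was -0.12 in fat, -0.07 in lymph node and 0.10 in thymus, and fat minus lymph node was 0.09 in Treg and 0.14 in Tconv cells, none of them called. With both averaged the calls for Ahr stayed under the threshold at smaller size, at 1.49 in lymph node, 1.54 in thymus and -1.71 for the fat minus lymph node difference of the Treg effect. No sequence of either probe set was used here, so which transcript part each reads was not tested.

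**Figure D2:**
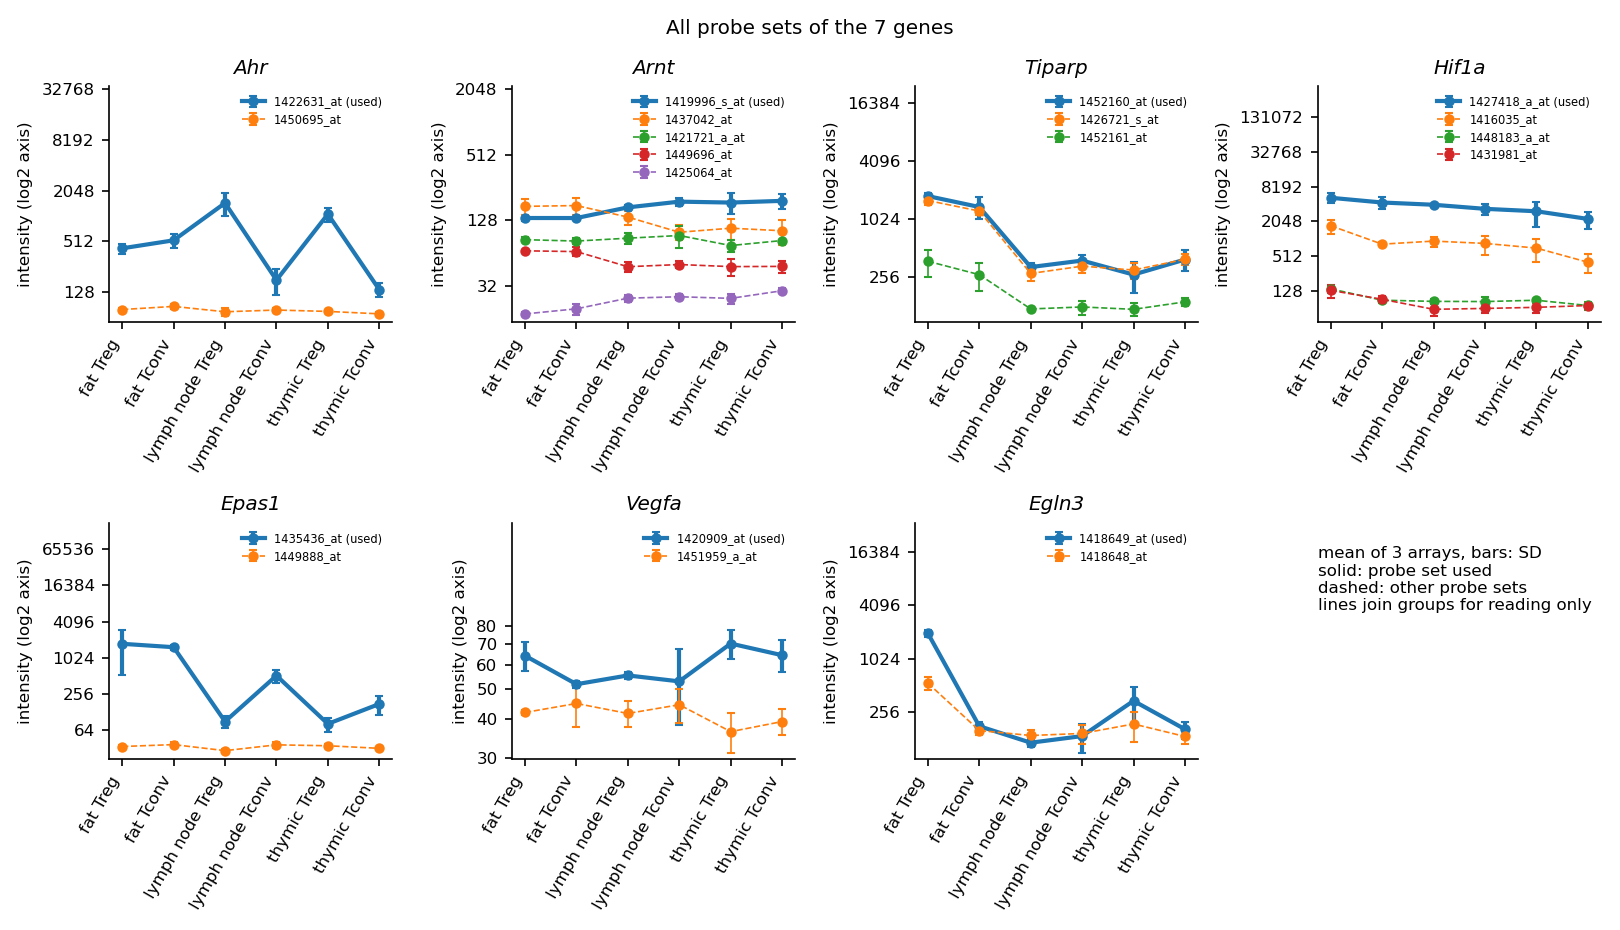
Group means of every probe set of the 7 genes (log2 axis, bars are the SD of 3 arrays); the solid line is the probe set used. The second Ahr probe set was flat between 70.6 and 86.5, and the 3 Tiparp and both Egln3 probe sets had the same shape over the groups, while those of Arnt differed in direction between fat and the other tissues.

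Arnt, the partner that AHR, HIF-1alpha and HIF-2alpha share, had a narrow range: the highest group mean was 1.44 times the lowest. It was 137, 139 and 126 in fat Treg and 141, 128 and 133 in fat Tconv cells, against 167, 177 and 159 in lymph node Treg and 208, 174 and 186 in lymph node Tconv cells. In thymus it was 153, 175 and 229 in Treg and 177, 175 and 226 in Tconv cells. All fat arrays lay below all arrays of the other tissues, and Treg and Tconv cells overlapped in each tissue. The fat minus lymph node difference was -0.50 ± 0.15 in Tconv cells (adjusted p = 0.0216) and -0.32 ± 0.15 in Treg cells (adjusted p = 0.101). In Treg cells it passed the threshold with the run of close array numbers as a block (adjusted p = 0.0272) and with arrays centred on their medians (-0.45, adjusted p = 0.0443). The call in Tconv cells did not hold over the gene's 5 probe sets: 1437042_at was higher in fat Tconv than in lymph node Tconv cells by 0.81 (adjusted p = 0.0138), 1449696_at was higher in fat Treg than in lymph node Treg cells by 0.49 (adjusted p = 0.0154), and the mean of the probe sets differed by 0.04 in Tconv cells (adjusted p = 0.817). Probe set 1421721_a_at gave -0.14 in Tconv cells, not called, and 1425064_at, with group means between 17.6 and 28.8, was under the dim floor and was not tested. As deposited, without the common normalization, the probe set used gave -0.15 in Tconv cells (adjusted p = 0.467). With it the Tconv difference missed the threshold without fat Tconv replicate 2 (adjusted p = 0.0581), fat Tconv replicate 3 (0.0569) or lymph node Tconv replicate 1 (0.0881). No direction for Arnt between fat and lymph node is therefore given.

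Tiparp, an AHR-induced ADP-ribosyltransferase known to repress AHR in return, was high in fat in both cell types. Its intensity was 1901, 1701 and 1700 in fat Treg cells, against 1679, 989 and 1413 in fat Tconv cells. In lymph node it was 360, 303 and 305 in Treg cells, against 428, 325 and 378 in Tconv cells, and in thymus 173, 270 and 364 in Treg cells, against 278, 460 and 420 in Tconv cells. Every fat array lay above every array of lymph node and thymus, and lymph node and thymic groups overlapped.

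Between fat and lymph node, 4 of the 7 genes were called in Treg cells, where 35.3% of all genes were called, and 4 of 7 in Tconv cells, where 23.3% were. In Treg cells 3 were higher in fat, beside 16.0% of all genes, and 1 was lower, beside 19.3%, and in Tconv cells 3 were higher, beside 11.0%, and 1 was lower, beside 12.3%. Tiparp was higher in fat by 2.46 ± 0.25 in Treg cells (log2, 5.49-fold, adjusted p = 6.88e-07) and by 1.83 ± 0.25 in Tconv cells (3.55-fold, adjusted p = 3.92e-05). The other Tiparp probe sets gave 2.53 and 1.59 in Treg cells and 1.91 and 1.08 in Tconv cells, all called. The stromal, macrophage and adipocyte marker sums given with Epas1 were also higher on these fat arrays, and their part in the Tiparp difference was not tested. Without the replicate 1 arrays of both fat groups, which had the highest stromal sums, Tiparp was higher in fat by 2.40 in Treg and 1.66 in Tconv cells, both called. The remaining fat arrays still had stromal sums of 3044 to 4007, against 710 to 913 in lymph node, so this fit does not remove RNA of other cells. Treg and Tconv cells did not differ at the threshold in Tiparp in fat (0.41, adjusted p = 0.378) or lymph node (-0.22, adjusted p = 0.889), and the difference of the Treg effect between fat and lymph node was 0.63 (adjusted p = 0.451). The target and its receptor differed in direction in Treg cells: in fat Treg cells Ahr was lower and Tiparp higher than in lymph node Treg cells, and in fat Tconv cells both were higher. Over the 18 arrays their log2 levels had a Pearson r of -0.12, given as a description.

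Hif1a, the broadly expressed hypoxia factor, was bright in all groups and was not called in any of the comparisons. It read 6310, 5013 and 4362 in fat Treg cells, against 5409, 3305 and 4270 in fat Tconv cells. In lymph node it read 3756, 4065 and 4046 in Treg cells, against 2595, 4116 and 3372 in Tconv cells, and in thymus 1493, 3349 and 4303 in Treg cells, against 1384, 2532 and 2820 in Tconv cells. Neighbours in the order of the group means overlapped throughout, with fat Treg cells (5229) highest and thymic Tconv cells (2245) lowest. The Treg minus Tconv difference was 0.28 in fat (95% interval -0.41 to 0.98), 0.26 in lymph node and 0.37 in thymus, and fat minus lymph node was 0.39 in Treg cells (95% interval -0.31 to 1.08) and 0.36 in Tconv cells.

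The other Hif1a probe sets gave larger differences for fat Treg cells, but not throughout. The next brightest, 1416035_at, averaged 1708 ± 485 in fat Treg and 817 ± 71.6 in fat Tconv cells (SD, n = 3 each), a difference of 1.03 (adjusted p = 0.0890). It differed by 0.87 between fat and lymph node Treg cells (adjusted p = 0.0803), and neither was called. Probe set 1448183_a_at averaged 137 ± 19.4 in fat Treg and 86.8 ± 7.20 in fat Tconv cells (SD, n = 3 each), higher in Treg cells by 0.65 (adjusted p = 0.0143), and was higher in fat than in lymph node Treg cells by 0.72 (adjusted p = 0.00296). Probe set 1431981_at was higher in fat than in lymph node Treg cells by 1.09 (adjusted p = 0.000954), with a mean of 60.3 in lymph node Treg cells, under the dim floor. Between lymph node Treg and Tconv cells the 3 gave 0.20, 0.03 and -0.06, and between fat and lymph node Tconv cells 0.03, 0.10 and 0.54, none called. With all 4 probe sets averaged, Hif1a was higher in fat Treg than in fat Tconv cells by 0.61 (adjusted p = 0.0408) and higher in fat than in lymph node Treg cells by 0.76 (adjusted p = 0.00480). As deposited, the difference between fat and lymph node Treg cells was 0.91 (adjusted p = 0.0256).

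Epas1, the gene of HIF-2alpha, which is best known from endothelial cells and a smaller set of other cell types, had the widest range of the 7 genes, with the highest group mean 21.2 times the lowest. Its intensity was 3154, 974 and 1119 in fat Treg cells, against 1613, 1347 and 1650 in fat Tconv cells. In lymph node it was 67.8, 98.6 and 104 in Treg cells, against 651, 501 and 405 in Tconv cells. In thymus it was 70.6, 108 and 68.5 in Treg cells, against 149, 136 and 243 in Tconv cells. All Tconv arrays of lymph node and thymus lay above the Treg arrays of the same tissue, the fat groups overlapped, and every fat array lay above every array of the other tissues.

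Epas1 was lower in Treg than in Tconv cells of lymph node, with a difference of -2.52 ± 0.35 (log2, a 5.75-fold lower level, adjusted p = 0.000173). In thymus the difference was -1.08 ± 0.35 (adjusted p = 0.0943), and in fat it was -0.02 ± 0.35 (adjusted p = 0.991, 95% interval -0.76 to 0.72). Epas1 was higher in fat than in lymph node by 4.09 ± 0.35 in Treg cells (17.0-fold, adjusted p = 1.07e-07) and by 1.59 ± 0.35 in Tconv cells (3.00-fold, adjusted p = 0.00317). Between fat and lymph node, 3 of the 7 genes were called for a difference of the Treg effect, beside 5.34% of all genes. The higher ones were Egln3 and Epas1, beside 2.46% of all genes, and the lower one was Ahr, beside 2.88%. For Epas1 the difference was 2.50 ± 0.50 (adjusted p = 0.00441). Its other probe set, 1449888_at, read below the dim floor in all groups, and with both averaged the differences were -1.42 in lymph node, 2.16 and 0.80 for fat minus lymph node in Treg and Tconv cells, and 1.36 for the difference of the Treg effect, all still called.

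Markers of other cells were also higher on the fat arrays. The summed intensity of 14 stromal and mesothelial markers was 3450 to 9600 in fat Treg and 3044 to 7123 in fat Tconv cells, against 710 to 849 in lymph node Treg and 721 to 913 in lymph node Tconv cells. Of the 10 that were tested, 10 were called higher in fat in Treg cells and 7 in Tconv cells. The summed macrophage and monocyte markers, 18 genes, read 1948 to 6337 in fat Treg and 1384 to 3949 in fat Tconv cells, against 1128 to 1496 in lymph node Treg and 1090 to 1341 in lymph node Tconv cells, with 10 and 6 of the 15 tested called higher in fat. The 13 endothelial markers summed to 1253 to 2167 in fat Treg and 1130 to 1754 in fat Tconv cells, against 777 to 947 in lymph node Treg and 831 to 1006 in lymph node Tconv cells. Of the 8 that were tested, 6 were called higher and 1 lower in fat in Treg cells, and 4 higher in Tconv cells. Pecam1 and Cdh5 of this list were below the floor on every fat array, at most 47.4 and 26.4. Kdr and Flt1 of the same list were called higher in fat. Kdr differed by 1.60 in Treg and 1.23 in Tconv cells, and Flt1 by 0.68 and 0.49. The 8 adipocyte markers summed to 2129 to 2871 in fat Treg and 1731 to 3003 in fat Tconv cells, against 348 to 391 in lymph node Treg and 341 to 379 in lymph node Tconv cells, with 1 of the 3 tested called higher in fat in each cell type.

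Replicate 1 had the highest stromal sum in both fat groups, and the Epas1 value of 3154 belonged to that fat Treg array. In fat Tconv cells Epas1 read 1613 on replicate 1 and 1650 on replicate 3, where the stromal sums were 7123 and 3221. The macrophage sum of fat Treg cells was highest on replicate 3, at 6337, where Epas1 read 1119. Over fat Treg replicates 1, 2 and 3, Epas1 read 3154, 974 and 1119. The stromal sums there were 9600, 3450 and 4007 and the endothelial sums 2167, 1253 and 1489, in the same order as Epas1. In fat Tconv cells Epas1 read 1613, 1347 and 1650, and the endothelial sums were 1754, 1130 and 1319. Without the replicate 1 arrays of both fat groups, a comparison chosen after seeing the data, Epas1 was higher in fat by 3.56 in Treg cells (adjusted p = 1.46e-07) and by 1.55 in Tconv cells (adjusted p = 0.00113), and the difference of the Treg effect was 2.01 (adjusted p = 0.00562). The fat arrays kept still had stromal sums of 3044 to 4007, against 710 to 913 in lymph node, so this fit does not remove RNA of other cells. The part that RNA of other cells had in the level of Epas1 in fat was not tested, and in sorted bulk samples more cells of a type and more RNA per cell cannot be told apart. The Treg minus Tconv difference in lymph node is taken between lymph node arrays alone.

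**Figure D3:**
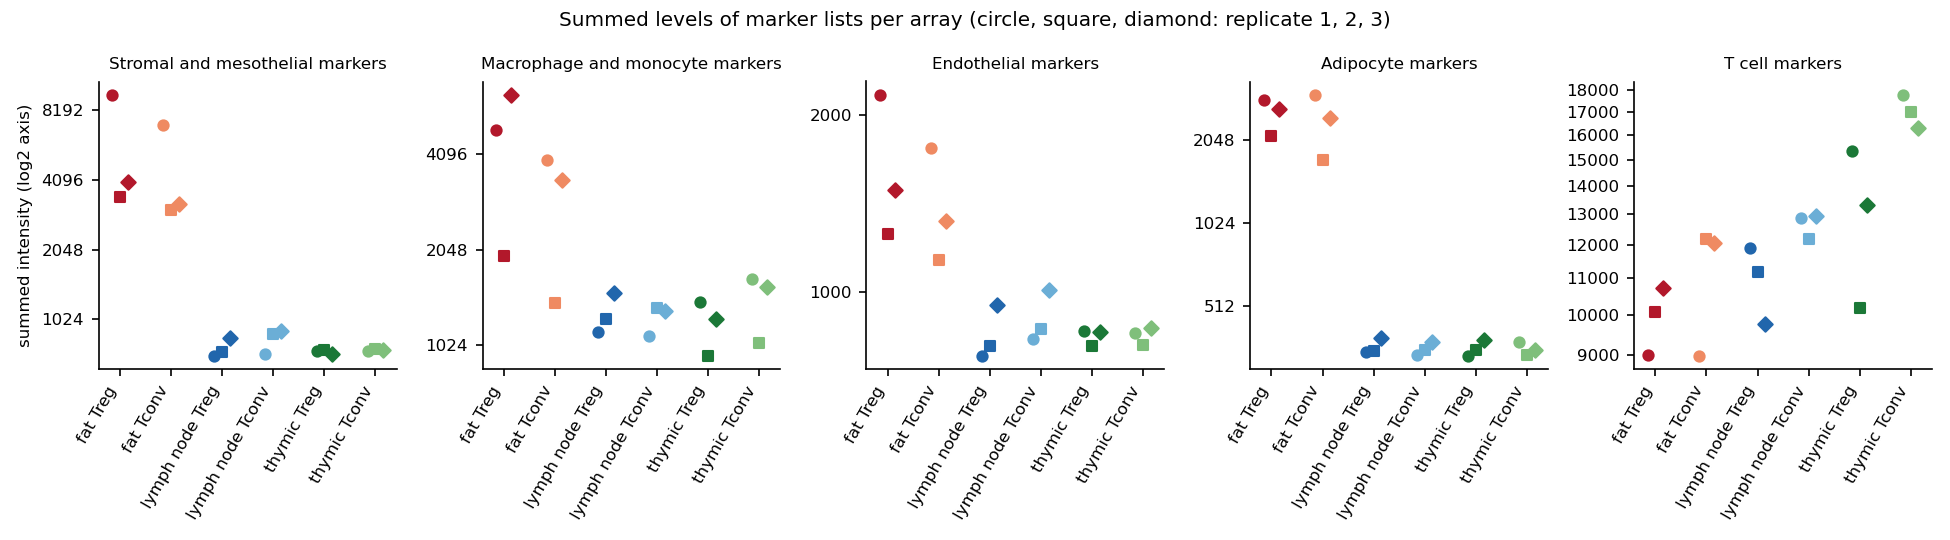
Summed intensity of marker lists on each array (log2 axis; circle, square and diamond are replicates 1, 2 and 3). Stromal and mesothelial markers summed to 3044 to 9600 on the fat arrays and to 710 to 913 on the lymph node arrays, with fat replicate 1 highest in both fat groups.

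Egln3, the oxygen-dependent hydroxylase that marks HIF proteins and is itself a HIF target, was the 1 member of 7 called between Treg and Tconv cells in fat, where 12.8% of all genes were called (6.84% higher and 5.91% lower). It read 2016, 1778 and 2126 in fat Treg cells, against 157, 193 and 180 in fat Tconv cells. In lymph node it read 126, 118 and 102 in Treg cells, against 88.5, 185 and 137 in Tconv cells, and in thymus 466, 384 and 174 in Treg cells, against 157, 202 and 132 in Tconv cells. Fat Treg cells stood above all other groups without overlap, and the other 5 groups overlapped with their neighbours in the order of the means.

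In fat, Egln3 was higher in Treg than in Tconv cells by 3.48 ± 0.30 (log2, 11.2-fold, adjusted p = 2.38e-07), and the 3 runs of close array numbers gave 3.20 to 3.68. In lymph node the difference was -0.19 (adjusted p = 0.925), and the difference of the Treg effect between fat and lymph node was 3.67 ± 0.42 (adjusted p = 2.35e-05). Between tissues, Egln3 was higher in fat than in lymph node by 4.10 ± 0.30 in Treg cells (17.2-fold, adjusted p = 1.37e-08) and differed by 0.43 in Tconv cells (adjusted p = 0.339, 95% interval -0.20 to 1.06). As deposited, that Tconv difference was 0.80 (adjusted p = 0.0435). The second probe set, 1418648_at, averaged 541 ± 88.0 in fat Treg and 158 ± 16.6 in fat Tconv cells (SD, n = 3 each) and gave smaller differences in the same directions, 1.77 in fat (adjusted p = 0.000119) and 1.83 for the difference of the Treg effect (adjusted p = 0.00516).

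None of the tested stromal, macrophage, endothelial or adipocyte markers was called between the fat groups by limma, where 3 of 15 tested macrophage and 1 of 8 tested endothelial markers had an unadjusted p under 0.05, and the ranges of each of these sums overlapped. The groups were apart in NK and cytotoxic markers: the sum of 8 NK and cytotoxic markers was 1912 to 3066 in fat Treg cells, against 5425 to 5968 in fat Tconv cells. Of the 6 tested, 1 marker was called higher and 3 lower in Treg cells. In addition, 1 of 7 tested dendritic cell and 1 of 5 tested mast cell and granulocyte markers was called higher. The part of these markers' cells in the Egln3 difference was not tested. Without the replicate 1 arrays of both fat groups the Egln3 difference was 3.38 (adjusted p = 1.87e-05). The arrays kept still had stromal sums of 3450 and 4007 in fat Treg and 3044 and 3221 in fat Tconv cells, so this fit does not remove RNA of other cells.

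In thymus the differences of Egln3, Epas1 and Tiparp depended on how replicates were treated. Egln3 differed by 0.97 ± 0.30 between thymic Treg and Tconv cells (adjusted p = 0.0738), Epas1 by -1.08, and Tiparp by -0.55 (adjusted p = 0.270). The replicate numbers paired the samples within tissues. With the number as a block 4 of the 7 genes were called in thymus, beside 1640 of 12258 genes, against 676 genes without it. Ahr and Egln3 were higher (Egln3 adjusted p = 0.0143), and Epas1 (adjusted p = 0.0454) and Tiparp (adjusted p = 0.0226) were lower. Without thymic Treg replicate 3, where Egln3 read 174, the Egln3 difference was 1.39 (adjusted p = 0.00175). Among the thymic Treg arrays that one had the lowest sums of NK and cytotoxic and of immature thymocyte markers. The thymocyte sum was also lowest on replicate 3 in thymic Tconv cells. Thymic Treg replicate 2 differed in another way, with a Treg marker sum of 10651, against 16436 and 16911 on replicates 1 and 3. The NK and cytotoxic sum was 5695, 8491 and 2485 in thymic Treg replicates 1, 2 and 3, against 1713, 1276 and 2021 in thymic Tconv cells, with 3 of the 6 tested markers called higher and 1 lower in Treg cells. The sum of 8 immature thymocyte markers was 5657, 5459 and 2531 in thymic Treg cells, against 3842, 4528 and 2540 in thymic Tconv cells, with 1 of the 6 tested called lower. Their part in the Egln3 difference was not tested.

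Vegfa, the HIF target that drives blood vessel growth, read between 36.3 and 78.3 on all 18 arrays, around the dim floor. It was 67.0, 56.3 and 69.2 in fat Treg cells, against 53.5, 50.8 and 51.5 in fat Tconv cells, and 53.7, 56.8 and 55.8 in lymph node Treg cells, against 36.3, 61.3 and 61.5 in lymph node Tconv cells. In thymus it was 68.6, 78.3 and 63.7 in Treg cells, against 61.3, 58.7 and 73.2 in Tconv cells. The fat groups did not overlap, but the difference of 0.30 did not pass the test (adjusted p = 0.355), and no other comparison called Vegfa. As deposited, fat minus lymph node in Treg cells was 0.64 (adjusted p = 0.00834). The second probe set, 1451959_a_at, was dimmer still. A level this near background limits what the array could show for Vegfa.

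**Figure D4:**
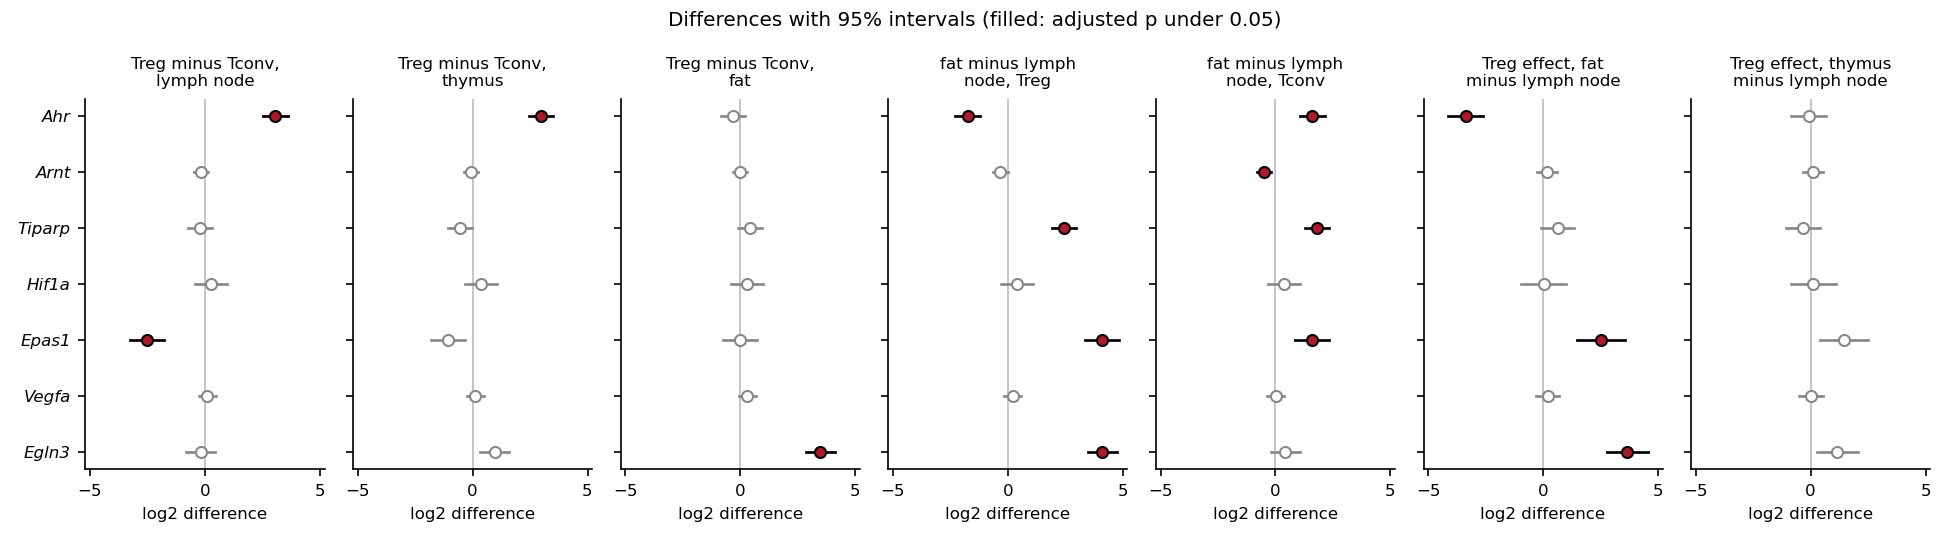
Differences of the 7 genes on the log2 scale with 95% intervals from limma, for Treg minus Tconv in each tissue, fat minus lymph node in each cell type, and the Treg effect in fat or thymus minus that in lymph node; filled points had an adjusted p under 0.05. Ahr was filled in lymph node (3.06) and thymus (2.98) and Egln3 alone in fat (3.48).

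Promoters of Egln3 and Tiparp are shown because these genes were the hydroxylase that stood apart in fat Treg cells and the AHR target that was high in fat, and that of Vegfa because it is the HIF target that read near background. RefSeq promoters (GRCm38.p6) were matched for 5 of the 7 genes, 6 promoters in all, and the 250 bases before the annotated start are printed, 5′ to 3′ on the gene's strand. Capitals mark the core letters GCGTG, bound by the AHR dimer with ARNT, or ACGTG, bound by the HIF dimers with ARNT, on either strand, CACGC being GCGTG and CACGT being ACGTG on the opposite strand. The Egln3 window is chr12:54203875-54204124 on the minus strand, the Tiparp window chr3:65528197-65528446 on the plus strand and the Vegfa window chr17:46032378-46032627 on the minus strand.
Egln3: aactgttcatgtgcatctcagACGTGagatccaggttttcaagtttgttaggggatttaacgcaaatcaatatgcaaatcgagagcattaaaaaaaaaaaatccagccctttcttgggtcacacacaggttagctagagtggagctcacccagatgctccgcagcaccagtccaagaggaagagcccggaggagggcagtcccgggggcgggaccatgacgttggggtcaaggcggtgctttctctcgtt
Tiparp: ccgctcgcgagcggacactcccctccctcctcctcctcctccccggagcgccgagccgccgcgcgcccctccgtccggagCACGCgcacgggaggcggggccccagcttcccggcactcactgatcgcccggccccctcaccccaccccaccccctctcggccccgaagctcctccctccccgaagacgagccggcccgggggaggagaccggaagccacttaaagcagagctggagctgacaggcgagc
Vegfa: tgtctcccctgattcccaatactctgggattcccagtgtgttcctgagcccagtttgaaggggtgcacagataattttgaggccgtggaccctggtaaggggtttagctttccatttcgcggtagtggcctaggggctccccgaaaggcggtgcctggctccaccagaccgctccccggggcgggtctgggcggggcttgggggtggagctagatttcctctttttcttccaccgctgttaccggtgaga
Egln3 held ACGTG once, 229 to 225 bases before the start, and Tiparp held GCGTG once on the opposite strand, 170 to 166 bases before it. The Vegfa window shown held neither, while the window of its second annotated start held 1 of each, Arnt held 1 GCGTG and Hif1a 3 ACGTG, of which 2 overlap on opposite strands. That second Vegfa window, chr17:46025164-46025413 on the minus strand, lies downstream of the first start. Bases further than 250 before each start were not searched. GCGTG stood in 28.2% and ACGTG in 16.6% of 32851 mouse promoters of the same length, and either in 38.6%, so a match of this kind is common. Ahr and Epas1 are named only.

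Genes of the HIF pathway were looked at beside the members, from lists that leave the 7 genes out. Of 31 measured HIF targets 30 were tested. In fat, 6 were higher and 2 lower in Treg than in Tconv cells, beside 6.84% and 5.91% of all tested genes. In lymph node 3 were higher and 0 lower, beside 3.26% and 1.34%, and in thymus 3 were higher and 1 lower, beside 3.40% and 2.11%. The higher ones in thymus were Bhlhe40 (2.43), Tpi1 (1.54) and Hk2 (1.07). The lower one there was P4ha2, by at least 1.40-fold, with thymic Treg cells under the dim floor. The HIF targets that were higher in fat Treg cells included Ndrg1, a stress-induced gene, which averaged 3973 ± 520 in fat Treg and 641 ± 126 in fat Tconv cells (difference 2.64), and the lipid droplet genes Hilpda, at 1768 ± 239 in fat Treg and 320 ± 114 in fat Tconv cells (2.53), and Plin2, at 2629 ± 242 in fat Treg and 686 ± 208 in fat Tconv cells (1.99; SD, n = 3 each). Those that were lower were Bhlhe40, a transcriptional repressor (-0.93), and Hk2, a hexokinase of glycolysis (-0.88), and both of these were higher in lymph node Treg cells, by 1.23 and 1.14. The difference of the Treg effect between fat and lymph node was 2.66 for Hilpda, 1.79 for Ndrg1, 1.77 for Plin2, -2.16 for Bhlhe40 and -2.03 for Hk2, all called. The median difference in fat over the 31 genes was -0.01, against 0.00 over all measured genes. Hilpda and Plin2 are also known as lipid-responsive genes.

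Between fat and lymph node, 11 of the 30 tested HIF targets were higher and 4 lower in Treg cells, beside 16.0% and 19.3% of all tested genes, and 10 were higher and 2 lower in Tconv cells, beside 11.0% and 12.3%. In Treg cells the largest were Hilpda (3.95), Plin2 (3.62) and the chemokine receptor Cxcr4 (3.08), with the secreted factor Stc2 (-1.05), the collagen hydroxylase P4ha1 (-0.87) and the mTOR inhibitor Ddit4 (-0.82) lower. In Tconv cells Bhlhe40 (4.45), Cxcr4 (4.16) and the vasodilator peptide Adm (2.16) were the largest, with Stc2 (-1.55) and Ddit4 (-0.61) lower. Median differences over the list were 0.31 and 0.08, against 0.01 and -0.03 over all measured genes. Adm was 319 to 897 in fat Treg and 264 to 979 in fat Tconv cells, and its spread over the fat arrays was wide.

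Of 15 genes of oxygen sensing and HIF turnover, all tested, 1 was higher and 1 lower between Treg and Tconv cells in each tissue. Of all genes, 6.84% were higher and 5.91% lower in fat, 3.26% and 1.34% in lymph node, and 3.40% and 2.11% in thymus. In fat the counts were near the share of all genes. Arnt2, the paralog of Arnt best known from neurons, was the higher one in all 3: it averaged 211 ± 40.8 in fat Treg and 65.0 ± 16.8 in fat Tconv cells, and 96.1 ± 6.61 in lymph node Treg and 55.6 ± 15.7 in lymph node Tconv cells (SD, n = 3 each). Both Tconv means were under the dim floor, so against the floor Arnt2 was at least 3.19-fold higher in fat Treg cells (adjusted p = 2.21e-05) and at least 1.47-fold higher in lymph node Treg cells (adjusted p = 0.0352). Both thymic groups were under the floor, at 65.3 in Treg and 37.7 in Tconv cells, and no fold is given there. The lower one was Cited2, a competitor of HIF-1alpha for its coactivators, in fat (-1.22), and the ubiquitin ligase gene Siah1a in lymph node (-0.86) and thymus (-0.81). Between fat and lymph node 5 of the 15 were higher in Treg cells, beside 16.0% of all genes, among them Arnt2 (1.12), the ubiquitin ligase scaffold Cul2 (0.97) and the ligase Siah2 (0.86), and 3 in Tconv cells, beside 11.0%, namely Cited2 (1.53), Siah2 (0.66) and Cul2 (0.55). The other prolyl hydroxylase genes, Egln1 and Egln2, did not differ between fat Treg and fat Tconv cells at the threshold (-0.21 with adjusted p = 0.443 for Egln1, 0.29 with adjusted p = 0.257 for Egln2).

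AHR targets gave little signal on the array: of 10 measured, 4 passed the filter on dim signals, and Cyp1a1, Cyp1a2, Ahrr and Nqo1 were among those that did not. Gpr15, a homing receptor of T cells, was higher in Treg than in Tconv cells in lymph node (2.57, adjusted p = 0.000501). In thymus, where Tconv cells were under the dim floor, it was at least 2.75-fold higher in Treg cells (adjusted p = 0.00206). It averaged 53.0 ± 14.4 in fat Treg and 88.7 ± 46.3 in fat Tconv cells, against 817 ± 334 in lymph node Treg and 141 ± 61.8 in lymph node Tconv cells, so with fat Treg cells under the floor it was at least 11.9-fold lower there than in lymph node Treg cells (adjusted p = 9.74e-07). Cyp1b1, a cytochrome P450 of the AHR battery, was under the floor in lymph node, at 57.1 in Treg and 65.4 in Tconv cells. It was at least 4.39-fold higher in fat in Treg (adjusted p = 0.000328) and at least 3.28-fold in Tconv cells (adjusted p = 0.00638), with 186 to 647 on the fat Treg and 132 to 475 on the fat Tconv arrays.

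Of 8 partners and coregulators of AHR, 7 of them tested, 2 were higher in Treg than in Tconv cells in fat, Arnt2 and the corepressor Nrip1 (1.05), beside 6.84% of all genes. In thymus 2 were called, Arnt2 and the chaperone gene Hsp90aa1 (0.63), beside 5.51% of all genes, and Arnt2 was the 1 called in lymph node, beside 4.59%. Between fat and lymph node Treg cells Nrip1 (1.31) and Arnt2 (1.12) were higher and the ubiquitin ligase gene Cul4b (-1.08) and the coactivator Ncoa1 (-0.41) lower, beside 16.0% and 19.3% of all genes. In Tconv cells Hsp90aa1 (1.01) was higher and Cul4b (-0.76) lower, beside 11.0% and 12.3% of all genes. Among 12 further bHLH-PAS factors, the family that AHR, ARNT and the HIF proteins belong to, 5 passed the filter, and Arnt2 and the clock gene Arntl were the ones called in any comparison, Arntl at 0.54 for fat minus lymph node in Treg and 0.61 in Tconv cells. For fat minus lymph node, 2 of the 5 were called in Treg cells, beside 35.3% of all genes, and 1 in Tconv cells, beside 23.3%.

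Of 9 other VEGF ligands and receptors, 5 passed the filter, and the ligand genes Vegfb, Vegfc, Vegfd and Pgf were not among them. Nrp1, a VEGF co-receptor also used to mark Treg cells of thymic origin, was higher in Treg cells by 2.88 in lymph node and 3.37 in thymus. In fat it averaged 1659 ± 127 in Treg and 1521 ± 274 in Tconv cells (SD, n = 3 each, difference 0.14, adjusted p = 0.897), and the difference of the Treg effect between fat and lymph node was -2.74. Like Ahr, it was lower in fat than in lymph node Treg cells (-0.94) and higher in fat than in lymph node Tconv cells (1.80). The receptors Kdr (1.60 and 1.23) and Flt1 (0.68 and 0.49), which are also on the endothelial marker list, were higher in fat than in lymph node in Treg and Tconv cells, and Nrp2 (0.82) in Treg cells. Of the 5 tested, 4 were higher and 1 lower in fat in Treg cells, beside 16.0% and 19.3% of all genes, and 3 were higher in Tconv cells, beside 11.0%.

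**Figure D5:**
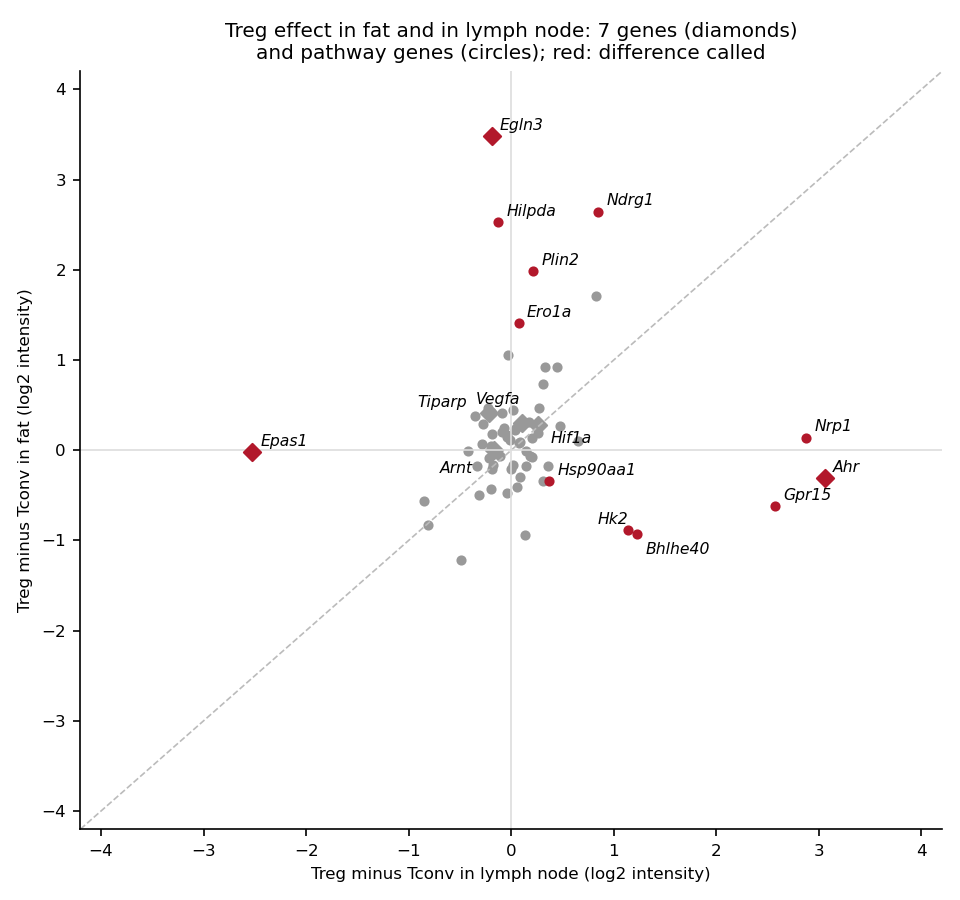
Treg minus Tconv difference in fat (vertical axis) against lymph node (horizontal axis), both as log2 intensity, for the 7 genes (diamonds) and the pathway lists (circles); red marks a called difference between the tissues and the dashed line equal effects. Egln3 (3.48 in fat), Ndrg1 and Hilpda lay high above the line, and Ahr (3.06 in lymph node) and Nrp1 far below it; both axes use the same scale and the comparisons share no arrays.

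Over the 18 arrays, the tested genes whose log2 level was most like that of each member were named by Pearson r, as a description of arrays that share tissue and pool. For Ahr they were Phlpp1 (0.904), Usp27x (0.891), Ccr6 (0.885) and Endod1 (0.873). For Egln3 they were Gata3 (0.972), AA467197 (0.949), Rnf130 (0.946) and Ctbp2 (0.945). The genes most like Tiparp were Pf4 (0.966), Cd36 (0.963), Ifrd1 and Spty2d1 (both 0.962), and those most like Epas1 were Cdr2 (0.957), App (0.949), Gabrg3 (0.938) and Mfsd6 (0.919). Arnt was most like Rcbtb1 (0.940), Gmfb (0.939), Rnmt (0.913) and Cbfb (0.912), and Hif1a most like Ubxn2a (0.914), Rad23b (0.907), Dgkh (0.902) and Ppp1r12a (0.901). Vegfa had the weakest likeness, with Akap1 (0.792), Wdr35 (0.782), Sec14l1 (0.774) and Pkig (0.767). Among the members themselves Tiparp and Epas1 were most alike (r = 0.88), both being high in the fat groups, while Ahr and Egln3 were not alike (r = 0.08).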

How the data were processed

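The arrays were Affymetrix whole-genome arrays of the mouse. RNA was extracted with Trizol and amplified over successive rounds, per the labels' protocols, which can distort ratios of low transcripts. The deposited values are intensities on a linear scale made with RMA, per the submitters' processing notes; which arrays were normalized together is not given in the sources used here. The authors' 45101 probe sets included 64 controls, which were left out. Of the rest, 34945 carried 1 symbol in the platform's annotation, 932 several and 9160 none.

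The deposited intensities were turned to log2 and quantile normalized over all 18 arrays with limma 3.58.1 in R 4.3.3. A gene was tested where at least 1 of 6 group means exceeded log2 6.03, the median of all values. For a called list gene with a group mean under this floor, the fold is the brighter group's log2 mean against the floor, as a lower bound. The fit had 1 coefficient per group and all arrays shared the spread (12 residual and 4.93 prior degrees of freedom). Its adjusted p-values are Benjamini-Hochberg over 12258 genes and called under 0.05. Probe sets were also tested singly (25665, of which 17 of the members' 20), with adjustment over those 25665. Adjusted p-values of single probe sets therefore rest on another set of tests than those of genes. Other settings were adjusted over the genes tested in each, 12822 as deposited, 12251 centred and 10754 with probe sets averaged. The script was tested on simulated data. No 2 arrays held identical values, and 3 arrays per group limit the precision.

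Replicate numbers of the labels paired Treg with Tconv arrays within tissues: deviations from the group means correlated at 0.41 to 0.66 in lymph node, 0.43 to 0.59 in thymus and 0.36 to 0.55 in fat. Across fat and lymph node they did not (-0.21 to 0.09 in Treg, -0.44 to -0.04 in Tconv). Runs of close array numbers (gaps up to 20) were compared as well, and what the numbers stand for is not given in the sources used here. Within tissues, arrays of the same replicate number also lay in the same run, so pairing by number and by run cannot be told apart. Across fat and lymph node, arrays of the same run correlated at 0.09, 0.09 and 0.38 in Treg and 0.39, -0.04 and 0.40 in Tconv cells. The members and all lists were chosen with earlier results of these data known. The text names all 7 members and the 4 genes most correlated with each member. List genes were taken from the 3 largest called per direction, but not all of these are given for every comparison. Egln1, Egln2 and genes listed as not passing the filter were named after their values were seen.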

Additional observations from a re-analysis of the deposited data

Results flagged for a closer look

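For 3 of the 7 genes the Treg minus Tconv difference itself differed between fat and lymph node, by the interaction contrast of the limma fit. Of all tested genes 5.34% were called in that contrast, 2.46% higher and 2.88% lower. For Ahr the difference of the Treg effect, fat minus lymph node, was -3.37 (log2, adjusted p = 9.66e-06): Ahr was higher in Treg cells on 3 of 3 lymph node arrays and showed no called difference in fat. For Epas1 it was 2.50 (adjusted p = 0.00441): Epas1 was lower in Treg cells in lymph node, and the fat groups overlapped. For Egln3 it was 3.67 (adjusted p = 2.35e-05): Egln3 was higher in Treg cells on 3 of 3 fat arrays, and the lymph node groups overlapped.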

How the results depend on the processing

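The 15 called results of the 7 genes kept direction and call in 228 of 233 tested settings of the whole fit, and the 5 exceptions were all Arnt in fat against lymph node Tconv cells. Genes called between fat and lymph node numbered 7020 in Treg and 5425 in Tconv cells as deposited. With the replicate block, genes called were 1081 in lymph node, 1640 in thymus, 2837 in fat, 1447 for the fat and 137 for the thymus difference of the Treg effect (each minus lymph node), and 4 members were called in thymus; it changed no other member's call. With probe sets averaged, 2 members were called in fat, Hif1a being added, and with only the compared groups in the fit 403 genes were called in thymus. Leaving out 1 array gave 461 to 1077 genes and 1 to 2 members called in thymus, and 19 to 65 genes and 0 to 1 members for the thymus difference, the highest of each without thymic Treg replicate 3.

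Some differences changed sign. Most were not called under either setting; the exceptions were Ahr with a dim probe set, and Arnt between fat and lymph node with other probe sets or their average. With the run of close array numbers as a block, 5 members were called between fat and lymph node Treg cells, beside 5622 of 12258 genes. Arnt was added, as it was with arrays centred on their medians. Treg minus Tconv in fat was -0.010 for Arnt and 0.066 for Epas1 as deposited, and -0.027 and 0.049 with arrays centred on their medians. With probe sets averaged, Arnt was 0.023 in lymph node, -0.020 in fat, 0.038 for fat minus lymph node in Tconv cells, and -0.044 and -0.10 for the fat and thymus differences of the Treg effect, and Ahr was 0.044 for the thymus difference. Without the fat arrays of highest stromal sum, Vegfa was -0.010 for fat minus lymph node in Tconv cells. Ahr probe set 1450695_at gave -0.074 in lymph node, 0.094 for fat minus lymph node in Treg cells and 0.17 for the thymus difference. Arnt probe set 1437042_at gave 0.46 in lymph node, 0.085 in thymus, -0.022 in fat, 0.32 and 0.81 for fat minus lymph node in Treg and Tconv cells, and -0.49 and -0.38 for the fat and thymus differences. Arnt probe set 1449696_at gave 0.49 and 0.39 for fat minus lymph node in Treg and Tconv cells, and 1421721_a_at gave -0.10 for the thymus difference. Hif1a probe set 1431981_at gave -0.061 in lymph node, -0.12 in thymus and -0.061 for the thymus difference. The causes were not tested.

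With 1 array left out, Treg minus Tconv ran in lymph node between -0.15 and 0.23 for Vegfa and -0.47 and 0.057 for Egln3, in thymus between -0.23 and 0.068 for Arnt, and in fat between -0.031 and 0.044 for Arnt and -0.55 and 0.30 for Epas1. Fat minus lymph node in Tconv cells ran between -0.24 and 0.14 for Vegfa, and the fat difference of the Treg effect between -0.15 and 0.20 for Hif1a. The thymus difference ran between -0.31 and 0.21 for Ahr, -0.053 and 0.24 for Arnt, -0.20 and 0.56 for Hif1a, and -0.11 and 0.27 for Vegfa. Signals near the dim floor, such as Vegfa and 1450695_at, limit what could be detected.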
